A study of Mus musculus with 4 samples.

Results

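The genes described here were 10 components of the transforming growth factor-β (TGF-β) pathway: the ligands Tgfb1 and Tgfb3, the receptors Tgfbr1, Tgfbr2 and Tgfbr3, the signal transducers Smad2, Smad3 and Smad4, the inhibitory Smad7, and Skil, which encodes the corepressor SnoN. They were taken by gene symbol, and all 10 were found among the 53379 genes of the deposited expression table. Control Treg cells came from Foxp3Cre-YFPSetd2f/+ mice, which kept 1 intact copy of Setd2, and KO Treg cells came from littermate Foxp3Cre-YFPSetd2f/f mice, in which both copies were floxed. Setd2 encodes the methyltransferase that places the H3K36me3 mark. All mice were adult, on a C57BL/6 background and at steady state, and all carried the Foxp3Cre-YFP allele, so Cre and YFP were made under the control of Foxp3 in both groups. CD3+CD4+YFP+ cells were sorted from the large intestine (LI), and each of the 2 control and 2 KO libraries pooled the cells of 2 to 3 mice. The spread within a group is therefore the spread between pools.

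TGF-β is secreted in a latent form that is held on the cell surface or in the matrix and is released by integrins. The active ligand binds the type II receptor, which phosphorylates the type I receptor, and the type I receptor phosphorylates Smad2 and Smad3. These enter the nucleus with Smad4 and regulate transcription, while Smad7 blocks the receptor and SnoN and Ski hold the Smad complexes in check. In T cells the pathway is known for inducing Foxp3 in the periphery, for restraining effector function and for inducing CD103 in the gut, and Treg cells both produce and respond to TGF-β.

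The values were deposited as FPKM, a measure that scales fragment counts to transcript length and to the mapped fragments of the library, so levels may be compared between genes. Differences were tested with limma on log2(FPKM + 1) over the 7639 protein-coding genes whose mean FPKM was above 5 in either group. Log2 fold changes are given as KO over control on that scale, which understates the change of genes with low values, and an adjusted p is adjusted over the 7639 genes by the Benjamini-Hochberg method. Of the 10 members, 8 passed the filter, and Tgfb3 and Tgfbr3 did not. Tgfb1 passed only through its control mean. Over the 5000 highest ranks the values of the 4 columns differed by at most 0.173% at a rank. Scaling to length and mapped fragments alone does not set this, so the values are not plain FPKM. Control 2 stood apart at the low end, with 28426 genes listed at 0 against 33223 to 33957 in the other libraries, and the depth of each library is unknown. The smallest p that an exact permutation test can give for 2 against 2 libraries is 0.333, so every p below rests on a variance estimate that limma moderates over all genes tested.

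The targeted gene Setd2 (ENSMUSG00000044791) measured 38.19 and 27.36 FPKM in controls 1 and 2, and 26.33 and 36.30 FPKM in KO 1 and 2. The groups overlapped, with a log2 fold change of −0.06 (SE 0.21, adjusted p = 0.927). The value covers the whole gene and not the floxed exons, so the genotype of the libraries could not be checked with it. Of the Treg markers, Foxp3 itself was low, at 2.62 and 5.61 in the control and 4.66 and 3.05 in the KO libraries. Il2ra, Ctla4, Tnfrsf18, Ikzf2, Cd4 and Cd3e were all present. The summed FPKM of the 7 markers was 4111 to 4627 in control and 4865 to 5085 in KO, and Ctla4 and Tnfrsf18 were its largest parts. Ctla4 was higher in KO (1593.26 and 1700.67 in control, 2159.97 and 2310.35 in KO, unadjusted p = 0.00491, adjusted p = 0.132 from limma). Ikzf2 was lower (120.75 and 115.57 in control, 84.12 and 98.36 in KO, unadjusted p = 0.0183, adjusted p = 0.222 from limma). For Il2ra both KO libraries were below both controls, and the groups overlapped for the other markers. Among markers of other cells, Igkc lay between 753 and 1171 and Lyz2 between 128 and 168. Ighm (257 to 328), Jchain (112 to 169) and Cd14 (32.4 to 42.0) were also present. So were Cd68 (21.4 to 31.0), Epcam (19.6 to 30.8) and Lgals4 (11.0 to 20.1). Epcam was lower in KO (unadjusted p = 0.00644, adjusted p = 0.147 from limma). Krt18, at 4.23 to 7.22, was higher (unadjusted p = 0.0207, adjusted p = 0.224 from limma). It passed the filter only through its KO mean (7.2, against 4.375 in control), so the filter favoured a call in this direction. The B cell genes Ms4a1 and Pax5 and the myeloid genes Itgam, Fcgr1 and Itgax were below 1 in every library. The same held for 7 of 10 epithelial and 8 of 10 stromal and endothelial markers. In these bulk libraries, fewer cells of a type and less RNA per cell cannot be told apart.

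The levels of the members spanned a wide range. Skil was the most abundant, with a mean of 303 over the 4 libraries, and Smad2 followed at 39.3. Smad7 (17.6), Tgfbr2 (15.5), Smad4 (13.7), Smad3 (13.3) and Tgfbr1 (12.4) came next, and each of these neighbours overlapped the next over the 4 libraries, so their order does not exceed the spread. The ligands were lower, with 5.40 for Tgfb1 and 4.12 for Tgfb3, whose ranges overlapped although Tgfb1 was above Tgfb3 in 4 of 4 libraries. Tgfbr3 was the lowest at 1.29.

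**Figure D1:**
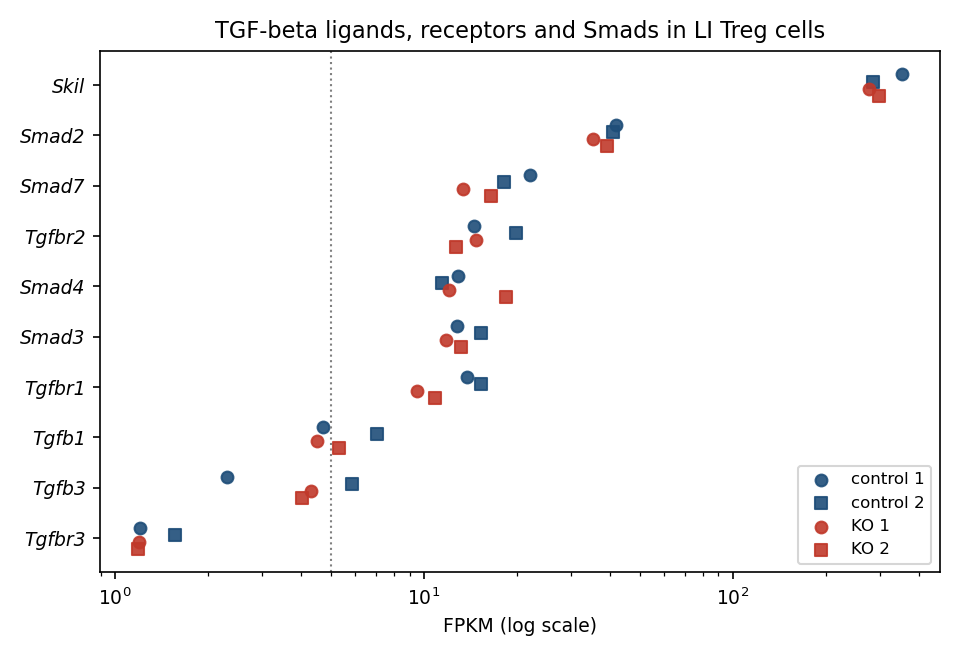
FPKM of the 10 members on a log axis, with 1 point per library (circles, replicate 1 and squares, replicate 2, control in blue and KO in red) and genes ordered by their mean. The dotted line marks the FPKM of 5 used as the filter on group means. Skil lies between 277 and 352 in all libraries, and Tgfbr3 between 1.19 and 1.57.

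In the comparison of KO with control, 7 of the 8 members tested had a lower mean log2 value in KO, and their median log2 fold change was −0.18, while the median over all genes tested was −0.0039 and 50.6% of them were below 0. At an unadjusted p below 0.05, 1 member, Tgfbr1, was lower, and the share of all genes tested that were lower at this threshold was 7.57%. None of the members was higher, against 8.61% of all genes tested. At an adjusted p below 0.05 no member was called, and 0.589% of all genes tested were. The adjusted p of the members from limma lay between 0.239 and 0.752. Both KO libraries were below both control libraries for Tgfbr1, Smad2 and Smad7, or 3 of 8, and the same held for 22.9% of all genes tested. The KO libraries were above both controls for 0 of 8, against 24.2% of all genes.

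**Figure D2:**
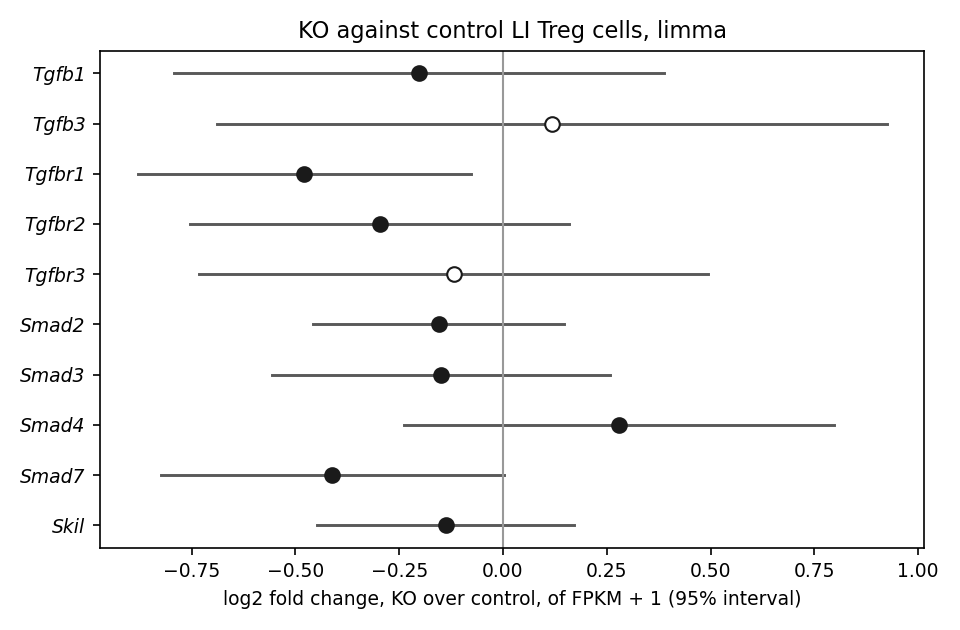
Log2 fold change of FPKM + 1, KO over control, with its 95% interval from limma for each member. Filled points were tested among the 7639 genes, and the open points of Tgfb3 and Tgfbr3 come from a fit that kept genes with a mean FPKM of at least 1. The interval of Tgfbr1 (−0.88 to −0.08) lies below 0, and the other 9 intervals include 0, that of Smad7 by less than 0.01.

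The ligands were examined first. Tgfb1 (ENSMUSG00000002603; GRCm38 chromosome 7, 25687002 to 25705077, plus strand) encodes the main TGF-β isoform of lymphocytes. It measured 4.73 and 7.05 FPKM in controls 1 and 2, and 4.51 and 5.32 FPKM in KO 1 and 2. Control 2 was the highest and the remaining libraries lay close together, so the groups overlapped. The means were 5.89 ± 1.64 (SD, n = 2) in control and 4.92 ± 0.573 in KO, with a log2 fold change of −0.20 (SE 0.25, 95% interval −0.79 to 0.39, adjusted p = 0.752 from limma). It was −0.45 without control 1 and −0.10 without KO 1, and without control 2 the gene fell below the filter. Tgfb3 (ENSMUSG00000021253; chromosome 12, 86056745 to 86079041, minus strand), a second isoform, measured 2.30 and 5.86 FPKM in controls 1 and 2, and 4.30 and 4.03 FPKM in KO 1 and 2. Both KO libraries fell between the control libraries. In the fit with the lower filter its log2 fold change was 0.12 (SE 0.35, 95% interval −0.69 to 0.92, adjusted p = 0.914 from limma), and without control 1 it was −0.41. The gene model of Tgfb3 overlaps Ttll5 on the other strand, whose FPKM was 2.49 to 5.25, so reads of the shared stretch are uncertain if the counting did not use strand.

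Latency and activation of the ligand were covered by a list of 14 genes, which holds Tgfb1 and Tgfb3, and 6 of them were tested. Of these 2 were lower in KO at an unadjusted p below 0.05 and none was higher, compared with 7.57% and 8.61% of all genes tested. The 2 lower genes were the chains of integrin αvβ8, which releases TGF-β from its latent form. Itgav, the αv chain, had an FPKM of 99.93 and 126.00 in control and 69.64 and 69.67 in KO, and both KO libraries lay well below both controls. Its log2 fold change was −0.68 (SE 0.14, adjusted p = 0.0857 from limma), the most negative of the 35 pathway genes tested. Itgb8, the β8 chain, had an FPKM of 17.38 and 17.86 in control and 11.86 and 12.27 in KO. The groups were again apart by more than the spread within either, with a log2 fold change of −0.51 (SE 0.15, adjusted p = 0.189). The unadjusted p was 0.0631 for Itgb8 without KO 1, and for Itgav it stayed at or below 0.0116 with any one library left out.

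The other tested genes of latency did not pass either threshold. Nrros, which anchors latent TGF-β on the cell surface, was 36.07 and 39.67 in control and 42.69 and 35.85 in KO (log2 fold change 0.05, adjusted p = 0.917 from limma). Furin, the protease that cuts the TGF-β precursor, was 53.80 and 96.43 in control and 74.80 and 53.98 in KO (log2 fold change −0.18, adjusted p = 0.804). Lrrc32, which was chosen after its values were seen and encodes GARP, the anchor of latent TGF-β on Treg cells, was 27.17 and 64.00 in control and 37.68 and 20.21 in KO (log2 fold change −0.58, SE 0.41, adjusted p = 0.533). In Furin and Lrrc32 the libraries control 2 and KO 1 were both above control 1 and KO 2, as they were in 17.7% of all genes tested and in Tgfb3, Tgfbr2, Foxp3 and Cd4. The difference between these pairs of libraries ran with GC content, with a median log2 difference of −0.0949 in the fifth of genes with the lowest GC content and 0.148 in the highest, while the KO minus control medians of the same groups of genes were 0.0188 and −0.0375. Its part in the spread of these genes was not tested.

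Tgfbr1 (ENSMUSG00000007613; chromosome 4, 47353222 to 47414931, plus strand), the type I receptor and the kinase that phosphorylates Smad2 and Smad3, had the smallest p among the members. It measured 13.82 and 15.36 FPKM in controls 1 and 2, and 9.50 and 10.89 FPKM in KO 1 and 2. Both KO libraries were below both controls, and the gap between the groups was larger than the distance within either. The mean was 14.6 ± 1.09 (SD, n = 2) in control and 10.2 ± 0.983 in KO, which is 30.1% lower, and the log2 fold change was −0.48 (SE 0.17, 95% interval −0.88 to −0.08). The unadjusted p was 0.0254 and the adjusted p was 0.239 from limma, so Tgfbr1 met the unadjusted threshold and not the adjusted one. When single libraries were left out, the estimate ranged from −0.57 to −0.39, and the unadjusted p was 0.11 without control 2 and 0.14 without KO 1. With the replicate number as a block it was 0.0543.

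Tgfbr2 (ENSMUSG00000032440; chromosome 9, 116084293 to 116175360, minus strand), the type II receptor that binds the ligand, measured 14.55 and 19.92 in controls 1 and 2, and 14.76 and 12.68 in KO 1 and 2. Control 2 was highest and KO 2 lowest, while control 1 and KO 1 were nearly equal, so the groups overlapped. Control 2 and KO 1 were both above control 1 and KO 2, the same order as in Furin and Lrrc32. The means were 17.2 ± 3.80 (SD, n = 2) and 13.7 ± 1.47, with a log2 fold change of −0.30 (SE 0.19, adjusted p = 0.499 from limma). Without control 1 it was −0.51 with an unadjusted p of 0.0395, and without control 2 it was −0.08. Tgfbr2 lies 5.47 Mb from Setd2 on the same chromosome. Of the 152 genes tested within 20 Mb of Setd2, 24.3% were called at an unadjusted p below 0.05 in either direction, compared with 16% elsewhere. Tgfbr3 (ENSMUSG00000029287; chromosome 5, 107106570 to 107289629, minus strand), the co-receptor betaglycan, was 1.21 and 1.57 in control and 1.2 and 1.19 in KO. KO 1 was below control 1 by only 0.01, a gap that this low level cannot resolve. In the fit with the lower filter the log2 fold change was −0.12 (SE 0.26, adjusted p = 0.879 from limma).

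The ratio of Tgfbr2 to Tgfbr1 in FPKM measured 1.05 and 1.30 in controls 1 and 2, and 1.55 and 1.16 in KO 1 and 2. The groups overlapped in this ratio, so the balance of the 2 receptor transcripts did not separate KO from control. Over the receptor list of 15 genes, which includes activin and BMP receptors, 3 were tested. Of these, 2 were lower at an unadjusted p below 0.05, compared with 7.57% of all genes tested. The second was Acvr2a, a type II receptor for activins, at 7.99 and 7.35 in control and 5.34 and 4.76 in KO. Its groups did not overlap, and its log2 fold change was −0.52 (SE 0.20, adjusted p = 0.278 from limma). With any one library left out the unadjusted p was between 0.0663 and 0.144, so the call of Acvr2a needed all 4 libraries.

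RefSeq promoters of GRCm38.p6, from 250 bases before to 50 bases after a start, were given for 4 of the 10 members, and a stretch of that of Tgfbr1 is shown because it was the only member called. The promoters of Tgfbr1, Tgfb1 and Smad3 were searched on both strands for CAGAC, which holds the 4 core bases of the Smad-binding element and 1 flanking base, and for the palindrome GTCTAGAC, which holds the same core on both strands. The stretch is written 5′ to 3′ on the strand of the gene, with CAGAC in capitals. It lies at chr4:47386001-47386030 on the plus strand, where the motif begins 203 bases before a start inside the gene.
Tgfbr1: tttcgaactcagCAGACagccccacggtcc
The upstream start of Tgfbr1, Tgfb1 and Smad3 had no CAGAC in their windows, and none of these windows held the palindrome. CAGAC was present in 49.6% of the 32851 promoter windows of the table and the palindrome in 0.213%, so a match is common for the first motif and is a description of the letters alone.

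Smad2 (ENSMUSG00000024563, chromosome 18), a receptor-regulated Smad, measured 41.84 and 41.00 FPKM in controls 1 and 2, and 35.21 and 39.09 FPKM in KO 1 and 2. The KO libraries were both below the controls, and KO 2 was close to control 2. The mean was 41.4 ± 0.594 (SD, n = 2) in control and 37.2 ± 2.74 in KO, with a log2 fold change of −0.15 (SE 0.13, adjusted p = 0.602 from limma). Smad3 (ENSMUSG00000032402; chromosome 9, 63646767 to 63757994, minus strand), the other receptor-regulated Smad of the TGF-β branch, was 12.77 and 15.28 in control and 11.80 and 13.24 in KO. The groups overlapped, and its log2 fold change was likewise −0.15 (SE 0.17, adjusted p = 0.732). Single libraries moved these values, from −0.23 without KO 2 to −0.081 without KO 1 for Smad2 and from −0.27 without control 1 to −0.028 without control 2 for Smad3. Smad2 transcripts were 2.68 to 3.28 times as abundant as those of Smad3 in FPKM, and the range of this ratio in KO lay inside that in control.

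Smad4 (ENSMUSG00000024515, chromosome 18), the common partner of the receptor-regulated Smads, was the only tested member with a positive log2 fold change. It measured 12.91 and 11.45 FPKM in controls 1 and 2, and 12.07 and 18.51 FPKM in KO 1 and 2. KO 2 stood above the other 3 libraries, and KO 1 lay between the controls. The log2 fold change was 0.28 (SE 0.22, adjusted p = 0.582 from limma). It was 0.57 without KO 1, with an unadjusted p of 0.0446, and −0.0099 without KO 2, so the difference rested on KO 2. Outside the TGF-β branch, Smad5, a receptor-regulated Smad of the BMP branch, was 24.25 and 19.37 in control and 21.73 and 24.16 in KO (log2 fold change 0.08, adjusted p = 0.872). Of the 8 Smads 5 were tested, and 0 of them were called at either threshold. Over all genes tested, 7.57% were lower and 8.61% higher at the unadjusted threshold, and 0.589% were called at the adjusted one.

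Smad7 (ENSMUSG00000025880, chromosome 18) encodes the inhibitory Smad that TGF-β itself induces and that turns off the type I receptor. It measured 22.11 and 18.25 FPKM in controls 1 and 2, and 13.42 and 16.45 FPKM in KO 1 and 2. Both KO libraries were below both controls, with KO 2 near control 2. The mean was 20.2 ± 2.73 (SD, n = 2) in control and 14.9 ± 2.14 in KO, which is 26.0% lower. The log2 fold change was −0.41 (SE 0.18, adjusted p = 0.312 from limma), and the unadjusted p of 0.0510 was just outside the threshold. This p from limma was 0.0499 with a pseudocount of 0.1, 0.0682 without a filter and 0.0938 in the fit that blocked on replicate. The log2 fold change was smaller in size without control 1 (−0.28) or KO 1 (−0.27) than without control 2 (−0.54) or KO 2 (−0.55). Smad6, the other inhibitory Smad, named after its values were seen, was at most 0.07 in any library, so nearly all inhibitory Smad transcript was Smad7.

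Skil (ENSMUSG00000027660; chromosome 3, 31095058 to 31122577, plus strand) encodes SnoN, a corepressor of Smad complexes that is also a target of the pathway. It measured 352.49 and 284.48 FPKM in controls 1 and 2, and 277.49 and 298.43 FPKM in KO 1 and 2. Control 1 was the highest, and the other 3 libraries lay within a narrow range that holds both KO libraries and control 2. The means were 318 ± 48.1 (SD, n = 2) and 288 ± 14.8, with a log2 fold change of −0.14 (SE 0.13, adjusted p = 0.657 from limma). It was 0.017 without control 1 and −0.29 without control 2, so the direction depended on control 1. Skil was 17.3 to 26.1 times as abundant in FPKM as its close relative Ski, which was chosen after its values were seen. The ratio of Skil to Smad7 was 15.9 and 15.6 in control and 20.7 and 18.1 in KO, and both KO ratios were above both control ratios. Smad7 was itself lower in both KO libraries, so the ratio is not a separate result. The ratio of Smad2 to Smad4 also separated the groups, at 3.24 and 3.58 in control and 2.92 and 2.11 in KO. How often ratios of other genes do so was not computed.

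**Figure D3:**
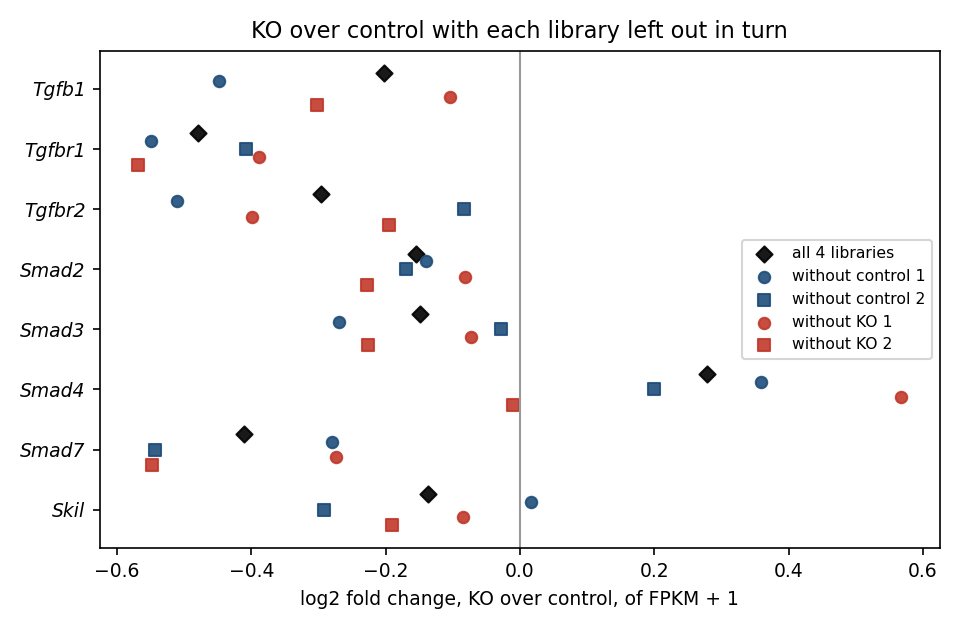
Log2 fold change of FPKM + 1 (KO over control) for the 8 tested members with all 4 libraries (diamonds) and with single libraries left out (coloured by the library left out). Tgfbr1 stays between −0.57 and −0.39, while Smad4 moves from 0.57 without KO 1 to −0.0099 without KO 2, and Skil crosses 0 without control 1.

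The corepressor and turnover list held 18 genes, of which 13 were tested and 0 were called at an unadjusted p below 0.05. Over all genes tested, 7.57% were lower and 8.61% were higher at this threshold. Tgif1, a corepressor of Smad complexes, was 308.20 and 289.68 in control and 268.93 and 217.91 in KO. Its groups did not overlap, with a log2 fold change of −0.30 (adjusted p = 0.314 from limma), and the unadjusted p was 0.0522. Fkbp1a, which binds the type I receptor and keeps it inactive, was 164.86 and 177.50 in control and 204.56 and 164.60 in KO (log2 fold change 0.10, adjusted p = 0.774). The ubiquitin ligases, deubiquitinases and the phosphatase of the list that were tested had adjusted p-values of at least 0.582.

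The target list held 17 genes that TGF-β is known to induce or repress, including Smad7 and Skil. Of these 13 were tested, 4 were lower and 1 was higher at an unadjusted p below 0.05, compared with 7.57% and 8.61% of all genes tested. Both KO libraries were below both controls for 9 of the 13 and above them for 2, compared with 22.9% and 24.2% of all genes. The median log2 fold change of the tested targets was −0.32, over induced and repressed genes together, so it has no direction in terms of the pathway. The Id genes encode inhibitors of basic helix-loop-helix factors and are repressed by TGF-β in many cell types. Id2 had an FPKM of 1376.13 and 1355.07 in control and 847.00 and 881.01 in KO, so the libraries within each group were close and the groups far apart. Its log2 fold change was −0.66 (SE 0.10, adjusted p = 0.0511 from limma). Id3 was 20 and 18.83 in control and 12.76 and 11.24 in KO, for a log2 fold change of −0.65 (SE 0.16, adjusted p = 0.120). Both Id genes kept an unadjusted p below 0.05 with any one library left out. Id1, named after its values were seen, was 7.31 and 5.99 in control and 8.65 and 6.42 in KO (log2 fold change 0.15, adjusted p = 0.801), and its groups overlapped.

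Among the induced targets, Itgae, which encodes the αE chain of CD103, was 26.36 and 31.13 in control and 20.61 and 17.80 in KO. That is a log2 fold change of −0.56 (SE 0.16, adjusted p = 0.168 from limma), and the unadjusted p was above 0.05 without control 2 or without KO 2. Gadd45b, a stress-response gene, was 436.39 and 541.77 in control and 363.44 and 340.61 in KO, for a log2 fold change of −0.47 (SE 0.13, adjusted p = 0.168), and the unadjusted p was 0.0563 without KO 2. Cdkn1a, the cyclin-dependent kinase inhibitor p21, went the other way. It was 823.91 and 816.30 in control and 1108.36 and 1077.12 in KO, for a log2 fold change of 0.41 (SE 0.10, adjusted p = 0.126), and the unadjusted p stayed below 0.05 with any one library left out. Of the 10 induced targets tested, 2 were lower and 1 was higher at the unadjusted threshold, compared with 7.57% and 8.61% of all genes tested. The log2 fold change of 8 was below 0, as it was for 50.6% of all genes tested.

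**Figure D4:**
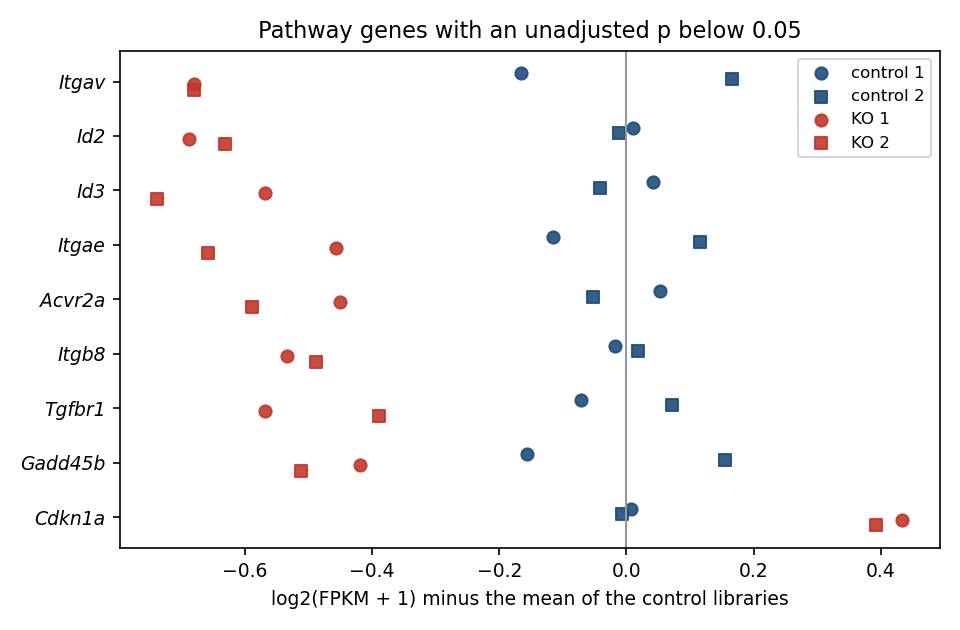
The 9 pathway genes with an unadjusted p below 0.05, as log2(FPKM + 1) minus the mean of the control libraries, with 1 point per library. Both KO libraries lie below both controls for the first 8 genes and above them for Cdkn1a, and the controls of Id2 and Itgb8 are closer together than those of Itgav and Gadd45b.

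Over the 5 lists together, 35 of 67 genes were tested. At an unadjusted p below 0.05, 8 were lower and 1 was higher, compared with 7.57% and 8.61% of all genes tested, and at the adjusted threshold 0 were called. The median log2 fold change was −0.20, and 24 of 35 were below 0, compared with a median of −0.0039 and 50.6% over all genes tested. Without the 10 members, 27 were tested, 7 were lower and 1 was higher, with a median of −0.23. Marker lists of Treg subsets differed between the same libraries. The summed FPKM of 6 thymic Treg and ST2 markers was 1560 to 1655 in control and 1103 to 1175 in KO, with 5 of the 6 lower and Nrp1 higher (9.79 and 9.93 in control, 15.36 and 12.50 in KO) at an unadjusted p below 0.05. That of 6 RORγt Treg markers was 98.2 to 104 in control and 136 to 138 in KO. The stromal and endothelial sum was 38.5 to 41.3 in control and 48.7 to 55.7 in KO, and nearly all of it was Pecam1 (34.65 and 36.26 in control, 49.25 and 42.72 in KO), with Dcn the only other marker above 1. Kdr, Emcn and Pdgfra were at or below 0.49 in every library and lower in both KO libraries than in both controls. The same held for 22.9% of the genes that passed the filter, which none of them did, and levels this low cannot resolve a difference. The groups overlapped for Col1a1, Col1a2, Col3a1, Lum and Cdh5 of the same list. The part of these differences in the values of the pathway genes was not tested.

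**Figure D5:**
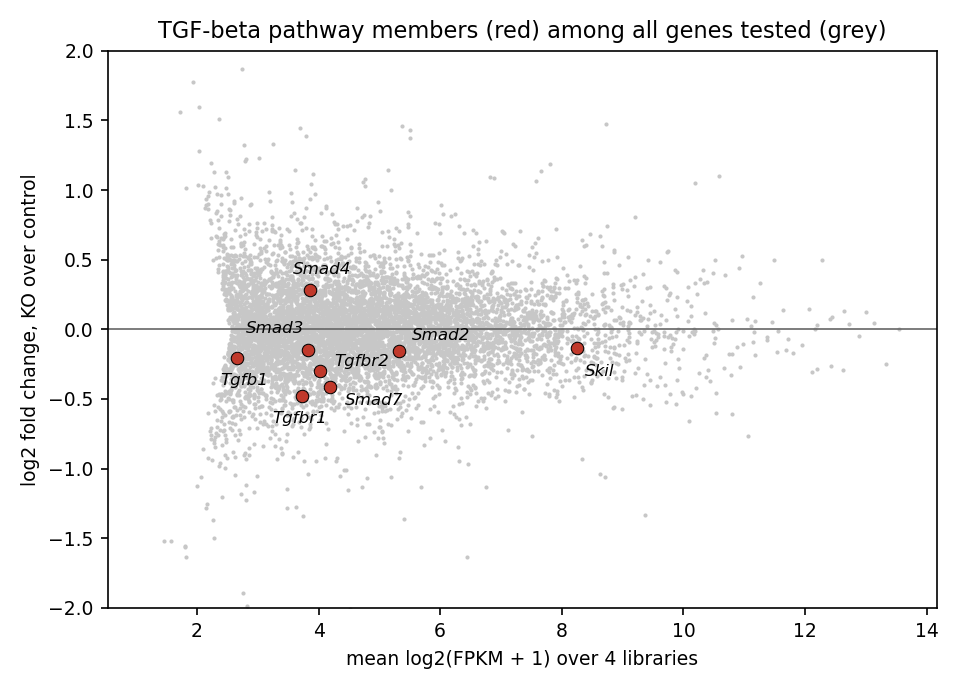
Log2 fold change (KO over control) against the mean log2(FPKM + 1) over the 4 libraries for all 7639 genes tested (grey) and the 8 tested members (red); 11 genes beyond a log2 fold change of 2 in either direction are not drawn. The members lie inside the cloud of all genes, with Tgfbr1 at −0.48 and Smad7 at −0.41 the lowest and Smad4 at 0.28 the highest.

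The genes with the values most like those of Tgfbr1 were found by the Euclidean distance of centred log2(FPKM + 1) over the 4 libraries. Slfn8 was at a distance of 0.0282, Rab23 at 0.0283 and Heatr3 at 0.0310. With 4 libraries many genes can share such a pattern, and the distance is a description only.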

How the data were processed

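RNA-seq of LI Treg cells was analysed in 2 control and 2 KO libraries. The authors aligned 150 bp read pairs against GRCm38 (STAR 2.5) and quantified GENCODE M16 genes (RSEM 1.2), the versions being those of the submitters' processing notes, and deposited FPKM rounded to 2 decimals, with no counts. The values at each of the 5000 highest ranks are nearly the same in the 4 columns, and the step that set this is not given in the sources used here. The columns keep no depth, so no counting interval was computed, and the edgeR test of the methods could not be applied. Gene types and positions came from GENCODE M21, which held 53274 of the identifiers. The comparison of KO and control used limma (version 3.58.1, R 4.3.3) on log2(FPKM + 1), with a variance trend and Benjamini-Hochberg adjustment. The fit was first run on simulated data with changes larger than those of the members. That run does not show how the fit performs for changes of their size. Tables and figures were made with Python 3.11.15, pandas 2.3.3, numpy 2.4.6 and matplotlib 3.10.9, and similar transcripts were sought with blastn 2.17.0. A promoter of another member is not reported here.

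The members and lists were chosen with earlier results of these data known. Genes named are the 10 members, the pathway genes with an unadjusted p below 0.05, the 3 of each list with the highest mean FPKM, Setd2, and the 3 genes nearest to the member with the smallest p. The choice of any other gene followed a look at its values. The alternatives were pseudocounts of 0.1 and 5, a lower filter (mean FPKM of at least 1) or none, genes of all types, rescaled, median-centred or quantile-normalized values, no variance trend, the replicate number as a block and each library left out, in which case the lone library is assumed to vary like the others. A crossed block and a correction for GC content were added after seeing the data. No label or method states whether pools with the same number shared litters or days.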

Additional observations from a re-analysis of the deposited data

How the results depend on the processing

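Of 130 alternative values of single members, 118 kept their direction and their side of the unadjusted threshold. These values include the crossed block and the GC correction described below. A lower filter or none, genes of all types, no variance trend and either block left the log2 fold change itself unchanged. Its direction could therefore not turn in those fits. The direction turned for Tgfb3 (−0.41) and Skil (0.017) without control 1 and for Smad4 (−0.0099) without KO 2. The other end of the range with a library left out was −0.29 for Skil and 0.57 for Smad4. The cause was not tested. With a library left out, the log2 fold change ranged from −0.57 to −0.39 for Tgfbr1, from −0.51 to −0.083 for Tgfbr2 and from −0.55 to −0.27 for Smad7. Members with an unadjusted p below 0.05 numbered 2 with a pseudocount of 0.1, Tgfbr1 and Smad7. Members at an adjusted p below 0.05 stayed at 0 in the fits of all 4 libraries. Pathway genes numbered 6 to 12 with each library left out, from 9, and 0 at the adjusted threshold. Over all genes, 1236 were called at the unadjusted and 45 at the adjusted threshold. Leaving out 1 library moved these to between 644 and 1247 and to between 2 and 43. The adjusted count was 27 with a mean FPKM of at least 1, 13 with all gene types and 3 without a variance trend. Without a filter the counts were 1946 and 0. Same-numbered libraries deviated from their group means with r = −0.305. The difference of control 2 and KO 1 from control 1 and KO 2, which ran with GC content, enters this r. The r therefore cannot decide whether pools with the same number shared litters or days. With the replicate block the counts were 796 and 27, and 0 members were called. A crossed block, chosen after seeing the data, gave 1991 and 465 genes, 2 members, and 14 and 7 pathway genes. The GC correction, also chosen after seeing the data, gave 110 adjusted calls over all genes and 1 among pathway genes, Id2. With 2 pools per group and no depth, small differences of members below 5 FPKM could not be resolved.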

Other observations

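Several receptor genes of the BMP and activin branches were hardly measured. Bmpr1b was listed at 0 in all 4 libraries, and Acvr1b, Acvr1c and Acvr2b were below 1 FPKM in every library. Tgfb2, the remaining TGF-β isoform, was 0.24 and 0.19 in control and 0.03 and 0.00 in KO, and Ltbp1, Ltbp2, Ltbp3 and Ltbp4, the latent TGF-β binding proteins of the matrix, were below 1 in every library. Nedd4l, a ubiquitin ligase below the filter, was 4.16 and 4.12 in control and 4.98 and 4.81 in KO. Wwp1, another ubiquitin ligase, was 2.92 and 2.47 in control and 3.96 and 3.48 in KO. Both KO libraries were above both controls for each of them, as for 24.2% of the genes that passed the filter, which neither of them did. In the fit with a mean FPKM of at least 1 the adjusted p from limma was 0.693 for Nedd4l and 0.503 for Wwp1. These genes were named after their values were seen, and the remaining ones were not tested.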
